A study of Mus musculus with 20 samples.

Results

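The LIM homeobox and LIM-only genes described here are 10 genes chosen by symbol: Lhx1, Lhx2, Lhx5, Lhx9, Isl1 and Lmx1a, which encode LIM homeodomain proteins, and Lmo1, Lmo2, Lmo3 and Lmo4, which encode LIM-only proteins. Each had 1 row in both deposited tables, among 37994 genes of a developmental series and 36104 genes of a left and right comparison. Single cells of mouse habenula, a paired epithalamic nucleus divided into medial and lateral parts, had been profiled by plate-based Cel-seq2, which counts unique molecular identifiers (UMIs) at the 3' ends of transcripts. The developmental series came from the Brn3a-tauLacZ line, Brn3a being the older name of Pou4f1, sampled at embryonic days E11, E13, E15 and E18, postnatal days P4 and P7, and adulthood with 2 plates each, and at E12 with 1. The second set, from E18 C57BL/6 mice, comprised 2 plates from the left side, 2 from the right side and 1 from both sides. No label or file used here gives the genotype at the reporter locus, the sex of the mice, how many were pooled per plate, or a sort gate. The deposited plate was the replicate, and since nothing says that plates of a stage came from separate animals, p-values measure the spread between plates only.

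LIM homeodomain proteins bind DNA through a homeodomain, and their paired LIM zinc fingers recruit the adaptor Ldb1, which dimerises and is protected from degradation by single-stranded DNA-binding proteins of the Ssbp family. LIM-only proteins carry LIM domains and no homeodomain, so they can compete for Ldb1 or be built into larger complexes. Rlim is a ubiquitin ligase that targets these complexes. In the embryonic forebrain Lhx2 and Lhx9 mark thalamic and habenular territories, Lhx1 and Lhx5 are expressed in parts of the diencephalon, Lmx1a marks the roof plate, and Lmo2 is known from blood and vessels.

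Promoter sequence of 8 of the 10 genes was in the RefSeq table used here (GRCm38.p6), read as the 250 bases before each listed start; Lmo1 has more than 1 start there, and its first is used. The stretches below are shown because Lmo1 and Lmo3 were often present in the same wells, as described later. This was not particular to them: Lhx9 had odds ratios of sharing a well above 1 with Lmo1 on 18 of 18 plates (median 4.0) and with Lmo3 on 19 of 19 (median 2.31). The only Lhx9 window read, chr1:138842445-138842694, lies inside the annotated gene and held neither CAGTTG nor TAATTA. Any link between these letters and the sharing of wells was not tested. Capitals mark a CAGTTG hexamer, a form of the E-box CANNTG, or the homeodomain core TAATTA. All are on the minus strand and were chosen after the motifs had been found.
Lmo3, 215 to 210 bases before the start (chr6:138582166-138582195): tgtaaaaggccaCAGTTGcttttcattgga
Lmo3, 109 to 104 bases before the start (chr6:138582060-138582089): agcagaagggtcCAGTTGgtttgggactgg
Lmo1, 17 to 12 bases before the start (chr7:109175208-109175236): cgggccgggtccCAGTTGctcagcccacg
Lmo1, 186 to 181 bases before the start (chr7:109175376-109175405): aatgaattgattTAATTAacaggggagtct
Of 27025 promoters of this length, 11.1% held CAGTTG on either strand, 66.0% held any CANNTG, of which CAGTTG is a case, and 4.90% held TAATTA, which reads the same on both strands. These matches describe the letters only.

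Of 5756 wells in the series, 3729 were kept as cells, and of 1920 in the second set, 1082. Summed counts over kept wells, on which the precision of every level rests, were lowest on adult plate 1 (758697) and highest on P7 plate 1 (7760372) in the series and from 1849863 to 6586449 in the second set. Plates of a stage could differ in the cells they held: wells with a Pou4f1 count made up 28.1% of kept wells on E18 plate 1 and 85.5% on E18 plate 2, 71.2% and 51.1% at E13, and 37.5% and 52.6% in the adult, against 80.9% to 92.2% on the other series plates. In the clusters described below, 173 of 267 kept wells of E18 plate 1 were in the progenitor-like cluster led by Tmem132c, against 7 of 110 of E18 plate 2. Adult plate 1 had 56 kept wells. Since a plate level sums over wells, fewer cells of a type and less RNA per cell cannot be told apart in it. Several plates shared a sequencing run, and no label used here says which, so run and stage cannot be told apart.

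Levels below are counts per 1000000 counts (CPM) over the kept wells of a plate, and changes are log2 fold changes from edgeR's quasi-likelihood test on counts summed per plate, with Benjamini-Hochberg adjustment over 17453 tested genes and a threshold of 0.05. Over the 7 stages with 2 plates, 7 of the 10 genes changed, against 46.4% of all genes tested: Lhx1, Lhx2, Lhx5, Lmo1, Lmo2, Lmo3 and Lmo4. Lhx9 (edgeR adjusted p = 0.124), Isl1 (0.0767) and Lmx1a (0.202) did not pass. All 4 LIM-only genes and 3 of the 6 LIM homeobox genes were among those that passed.

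**Figure D1:**
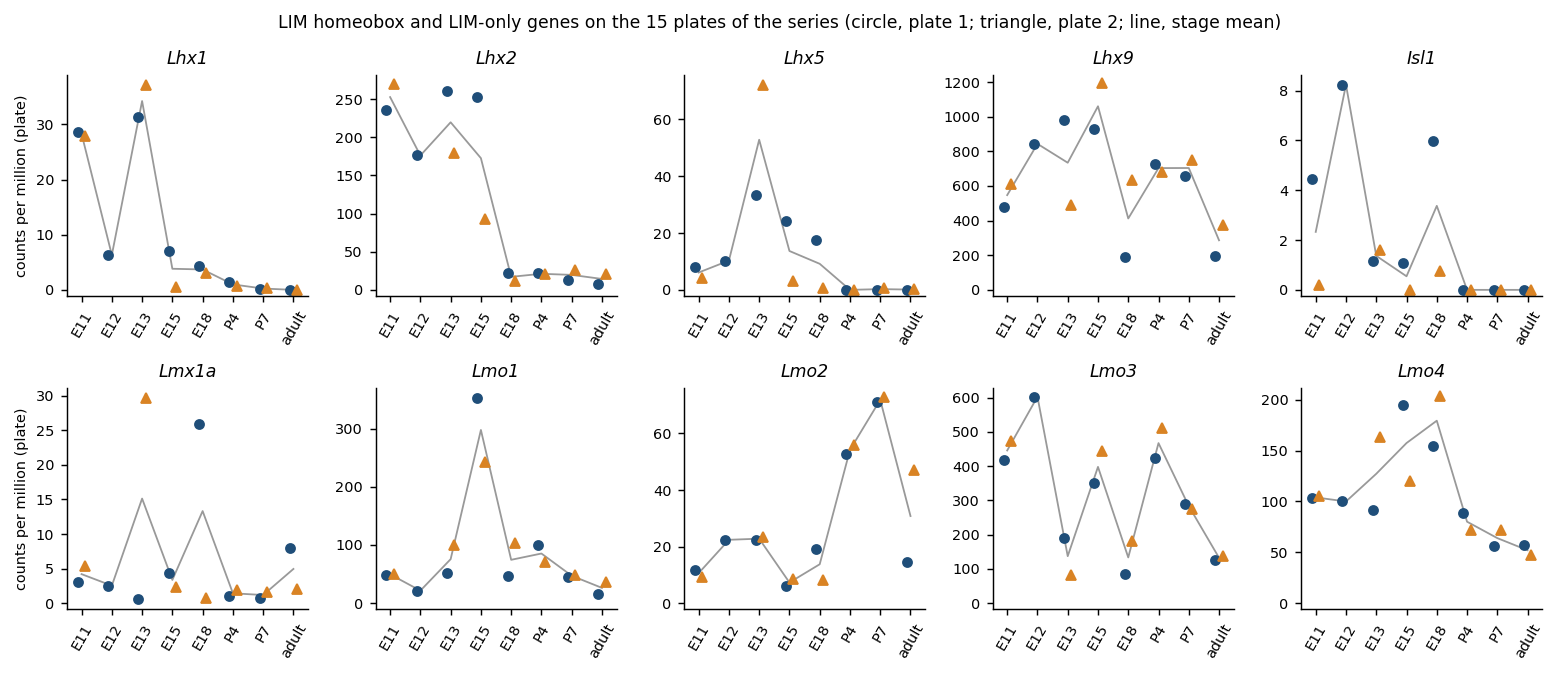
Levels of the 10 genes on the 15 series plates, in CPM, by stage; circles are plate 1, triangles plate 2, and the line joins stage means. Lhx1 is highest on the E11 and E13 plates and lower on the E12 plate (6.32 CPM), Lhx2 is higher on every plate up to E15 than on any later one, Lmo1 is highest on the 2 E15 plates (353 and 242 CPM), and Lmo2 is highest on the P4 and P7 plates (52.6 to 72.8 CPM).

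On the series plates Lhx2 was high early and low from E18 on. Its level was 236 and 269 CPM on the E11 plates, 176 CPM at E12, 260 and 179 CPM at E13 and 252 and 93.0 CPM at E15. It was 22.0 and 12.1 CPM at E18, 21.7 and 20.4 CPM at P4, 13.3 and 25.9 CPM at P7, and 7.91 and 20.7 CPM in the adult. Every series plate up to E15 lay above every later one. In the second set, of another line and dissection, the E18 plates held 19.5 to 76.8 CPM, so 4 of those 5 plates lay above both series E18 plates and all 5 below the E15 plates. Lhx2 was the 1 member of 10 that changed from E15 to E18, where 0.195% of all genes were called; the fall was 3.42 ± 0.53 on the log2 scale (edgeR adjusted p = 0.0349). Within Pou4f1-positive wells the levels were 246 and 89.0 CPM at E15 and 22.1 and 13.0 CPM at E18, and the gene passed there too. The call was lost without E15 plate 1 (edgeR adjusted p = 0.137), without E18 plate 1 (0.0708), with the replicate number as a block (0.0594), and when only the 4 plates of both stages were fitted (0.53), with falls of 2.69 to 3.89 on the log2 scale.

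The share of kept wells with an Lhx2 count depends on how deeply a well was read. It was 56.3% and 63.5% at E11 and 63.8% and 44.0% at E15, then 10.5% and 7.27% at E18 and 22.3% and 22.4% at P4. The P4 wells were deeper, with medians of 19868 and 20576 counts against 9164 and 8883 at E18. With each well thinned to 2000 UMIs, the share was 28.9% and 33.1% at E11, 32.4% and 16.6% at E15, 3.67% and 2.03% at E18, and 4.35% and 3.83% at P4. At equal depth the E18 and P4 plates thus lay closer together than in the share of all counts.

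Lhx9, the closest relative of Lhx2 among the members, was high on most plates of every stage before the adult. It stood at 480 and 614 CPM at E11, 843 CPM at E12, 980 and 488 CPM at E13, and 927 and 1193 CPM at E15. At E18 the 2 plates differed, with 187 and 637 CPM, and the plate with few Pou4f1-positive wells was the lower. At P4 Lhx9 was at 725 and 681 CPM, at P7 at 658 and 749 CPM, and in the adult at 195 and 377 CPM. Within Pou4f1-positive wells the E18 values were 381 and 669 CPM and the adult values 202 and 455 CPM, so both stages stayed spread. Counts of Lhx9 were present in 89.3% to 98.0% of kept wells on the plates of E11, E12, E15, P4 and P7. No comparison of successive stages gave a call for Lhx9; the smallest adjusted p was 0.182, from P7 to the adult, with a change of -1.40 ± 0.56.

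Lhx1 was found in few wells and was highest at E11 and E13. Its level was 28.6 and 28 CPM at E11, 6.32 CPM at E12 and 31.3 and 37.2 CPM at E13. It was 7.06 and 0.594 CPM at E15, 4.39 and 3.01 CPM at E18, 1.36 and 0.614 CPM at P4, and 0.129 and 0.352 CPM at P7. No count of Lhx1 was found on either adult plate, where 3 counts would have been 3.95 and 0.596 CPM. Even at E13 the gene was present in only 12.4% and 16.1% of kept wells, and at E11 in 5.18% and 5.51%. From E13 to E15 the change was -3.21 ± 0.76 with an edgeR adjusted p of 0.136, and the E12 plate, which was not in the fit, lay below the plates of both neighbouring stages.

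Lhx5 was highest at E13 and differed widely between plates. It was at 7.92 and 4.29 CPM at E11, 10.3 CPM at E12 and 33.5 and 72.2 CPM at E13. At E15 it stood at 24.4 and 2.97 CPM and at E18 at 17.6 and 0.753 CPM, so plate 1 was the higher of each pair, with 45.0 and 10.0 counts on the E15 plates and 44.0 and 1.0 on the E18 plates. No Lhx5 count was found on the 2 P4 plates, on P7 plate 1 or on adult plate 1, and the other P7 and adult plates held 3 and 1 counts. From E18 to P4 the mean of 9.16 CPM fell to 0 (edgeR adjusted p = 0.0224). With 3 counts per plate as the floor this is at least 18.9-fold lower, and from E13 to P4 the level was at least 109-fold lower. The 18.9-fold bound rests on E18 plate 1: E18 plate 2, with 1 count, lay under its own floor of 2.26 CPM, so no fold can be given from it. The E18 to P4 call was lost when E18 plate 1 (edgeR adjusted p = 0.445), P4 plate 1 (0.106) or P4 plate 2 (0.126) was omitted.

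Isl1, a factor of motor, sensory and striatal neurons, and Lmx1a were low on most plates. Isl1 reached at most 8.23 CPM, at E12, and was not found on any of the 6 postnatal plates. Its counts came from few wells: 23.0 counts in 7 wells on E11 plate 1, 39.1 counts in 10 wells at E12 and 15.0 counts in 10 wells on E18 plate 1. At E12, 64.2% of them lay in 5 non-neural wells, and without those wells Isl1 was at 3.06 CPM. Lmx1a was high on 2 series plates, with 29.7 CPM on E13 plate 2 and 25.9 CPM on E18 plate 1, and lay between 0.568 and 7.91 CPM on the others. Among the embryonic plates of the series, those 2 also had the smallest shares of Pou4f1-positive wells, 51.1% and 28.1%. In the second set, the plate of both sides had a share of 46.2% and Lmx1a at 2.89 CPM. The part of these shares in the Lmx1a levels was not tested. Within Pou4f1-positive wells the 2 series plates held 14.7 and 7.35 CPM.

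Among the LIM-only genes, Lmo1 was highest at E15. Its level was 48.5 and 50.5 CPM at E11, 21.5 CPM at E12, 51.1 and 100 CPM at E13, and 353 and 242 CPM at E15. It then stood at 45.9 and 103 CPM at E18, 99.9 and 70.6 CPM at P4, 45.4 and 48.7 CPM at P7, and 15.8 and 36.6 CPM in the adult. Both E15 plates lay above all 13 other plates of the series. Lmo1 changed over the stages as a whole (edgeR adjusted p = 0.0012), while its difference from E13 to E15 of 2.11 ± 0.45 (0.111) and its difference of -2.12 ± 0.45 from E15 to E18 (0.0873) did not pass singly. Within Pou4f1-positive wells the E15 plates were at 401 and 249 CPM and the E18 plates at 99.3 and 110 CPM, so the E18 plates stood close together once these wells alone were counted.

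Lmo2 was low in the embryo and rose after birth. It was at 11.8 and 9.40 CPM at E11, 22.4 CPM at E12, 22.2 and 23.4 CPM at E13, and 5.97 and 8.62 CPM at E15. At E18 it stood at 19.2 and 8.29 CPM, at P4 at 52.6 and 55.8 CPM, at P7 at 71.0 and 72.8 CPM, and in the adult at 14.5 and 47.1 CPM. All 4 plates of P4 and P7 lay above every other plate, those of the second set at E18 included, which held 9.23 to 27.9 CPM. The rise from E18 to P4 was 2.16 ± 0.43 on the log2 scale (edgeR adjusted p = 0.0078), and from E11 to P4 it was 2.42 ± 0.41 (0.00209). The share of wells with Lmo2 was 7.49% and 8.18% at E18 and 40.8% and 44.4% at P4, and at 2000 UMIs per well it was 3.41% and 2.11% against 9.18% and 9.37%. The call from E18 to P4 was lost without P4 plate 2 (0.0576) and when only the plates of both stages were fitted (0.0566).

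On some embryonic plates much of the Lmo2 signal was carried by cells outside the neural lineage. Wells of clusters named endothelial-, mural-, fibroblast- or microglia-like from marker genes numbered 19 of 267 on E18 plate 1 and held 81.3% of the Lmo2 counts of that plate; on the 2 E13 plates they held 59.0% and 61.4%. The share was 0% on E18 plate 2, where 10 of 110 wells were of these clusters, 0% and 27.6% at E15, 31.2% at E12, and 8.20% and 10.9% at E11. On the P4 and P7 plates such wells held 2.90% to 3.99% of the Lmo2 counts, and on the adult plates 9.09% and 21.1%. Without them the level was 3.83 and 8.80 CPM at E18, 51.8 and 54.3 CPM at P4, and 13.5 and 38.8 CPM in the adult. Lmo2 passed the test from E18 to P4 as before.

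Within the series, Lmo3 had its lowest embryonic values at E13 and E18. Its level was 419 and 473 CPM at E11 and 603 CPM at E12, then 191 and 83.4 CPM at E13, 352 and 444 CPM at E15, and 85.0 and 182 CPM at E18. It was 423 and 512 CPM at P4, 291 and 276 CPM at P7, and 127 and 138 CPM in the adult. From E18 to P4 it rose by 2.01 ± 0.44 on the log2 scale (edgeR adjusted p = 0.0119). The other steps did not pass: from E11 to E13 the change was -1.84 ± 0.44 (0.0663), from E13 to E15 1.65 ± 0.44 (0.164), and from E15 to E18 -1.68 ± 0.44 (0.126). Within Pou4f1-positive wells Lmo3 stood at 154 and 196 CPM at E18 and 435 and 523 CPM at P4. The second set had 185 to 342 CPM at E18, above both series E18 plates and below the P4 plates. Without E18 plate 1 the rise was 1.48 (edgeR adjusted p = 0.0553) and without P4 plate 2 it was 1.85 (0.0813); with only the plates of both stages fitted it was 1.91 (0.102).

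Lmo4 was found in most kept wells before the adult. Its level was 103 and 105 CPM at E11, 100 CPM at E12, 91.5 and 163 CPM at E13, 195 and 120 CPM at E15, and 155 and 204 CPM at E18. It then stood at 88.4 and 71.8 CPM at P4, 55.8 and 72.1 CPM at P7, and 56.7 and 47.3 CPM in the adult. From E18 to P4 it fell by 0.96 on the log2 scale (SE 0.30, edgeR adjusted p = 0.0453). The second set had 89.3 to 137 CPM at E18, below both series E18 plates, and its lowest plate was close to P4 plate 1 at 88.4 CPM. Omitting E18 plate 2 (0.183), P4 plate 1 (0.141), P4 plate 2 (0.247) or the non-neural wells (0.0536) ended that call, as did the replicate block (0.0613), taking every well (0.0526) and fitting only the plates of both stages (0.109). Counts of Lmo4 were present in 52.4% to 71.3% of kept wells on all series plates before the adult.

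**Figure D2:**
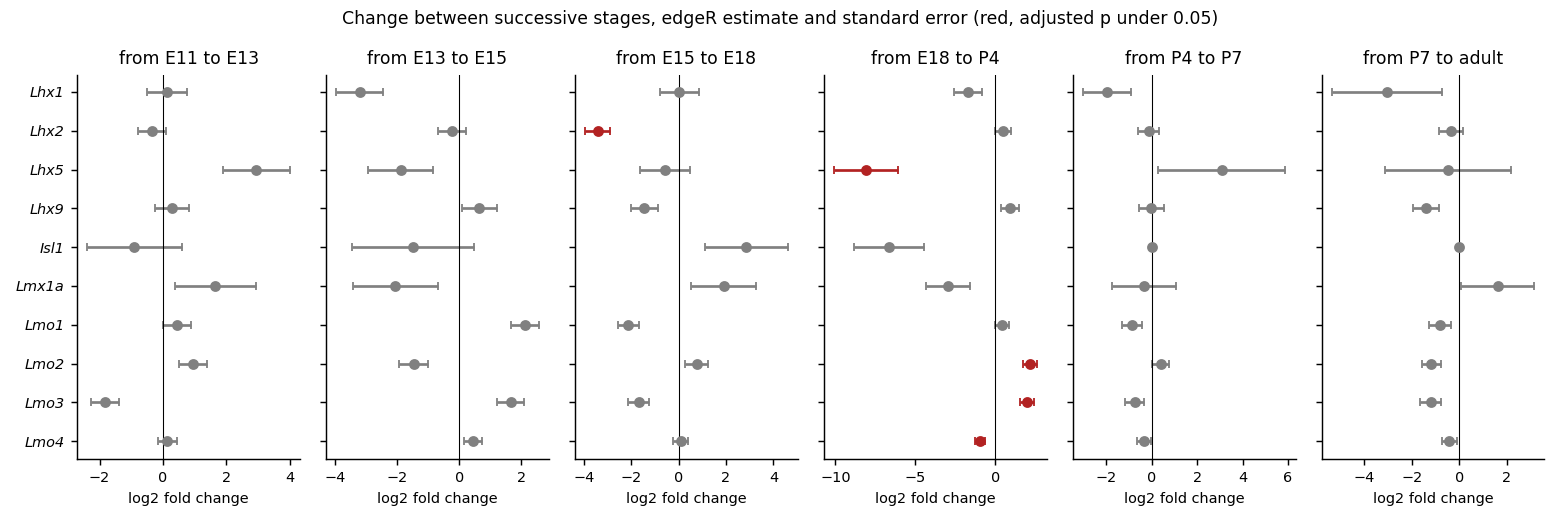
Log2 fold change of each of the 10 genes between successive stages with 2 plates, with the standard error from edgeR; red marks an adjusted p under 0.05. Lhx2 from E15 to E18 and Lhx5, Lmo2, Lmo3 and Lmo4 from E18 to P4 are the 5 marked points, and the Lhx5 estimate rests on a group at 0.

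Counted by step, 0 of the 10 members were called from E11 to E13, where 1.45% of all genes were called, and 0 from E13 to E15 (0.0917% of all genes). At an unadjusted p under 0.05 these steps gave 3 and 4 members in edgeR, beside 17.8% and 12.5% of all genes, and DESeq2 called 1 and 3 members, beside 5.45% and 2.55% of all genes. From E18 to P4, 4 were called, against 19.6% of all genes: Lmo2 and Lmo3 rose, and Lmo4 and Lhx5 fell. Of the 6 LIM homeobox genes only Lhx5 was called, and Lhx2 (0.50 ± 0.51) and Lhx9 (0.94 ± 0.55) had positive changes. Lhx1 (-1.70 ± 0.86) and Lmx1a (-2.96 ± 1.36) had negative ones, from E18 means of 3.70 and 13.3 CPM. The median change of the 4 LIM-only genes at this step was 1.21 and that of the 6 LIM homeobox genes -2.33, beside -0.07 for all genes. The second of these takes in fitted values of Lhx5 and Isl1, which were at 0 at P4, and was -2.25 with both at the bound that 3 counts per plate give. Without E18 plate 1 the medians were 0.67 and -0.61. The count was 7 when E18 plate 2 was omitted (28.5% of all genes), 2 when E18 plate 1 (8.51%) or P4 plate 1 (4.73%) was, and 0 when P4 plate 2 was (3.08%), so calls over all genes moved with it. From E15 to E18, 4 members passed without E18 plate 2, where 10.5% of all genes did, and 0 without E15 plate 1 (0.0199%) or E18 plate 1 (0.0663%). From P4 to P7, 0 members were called (0.00573% of all genes; 0 members and 2.72% of all genes at an unadjusted p under 0.05), and from P7 to the adult 0 (3.58% of all genes; 3 members and 20.7% of all genes at an unadjusted p under 0.05). DESeq2 called 0 members in each of these 2 steps, beside 0.126% and 8.08% of all genes.

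From E11 to P4, a comparison that shares its plates with the steps above, 4 of 10 members were called, against 24.3% of all genes. Lhx1 fell by 4.75 ± 0.78 on the log2 scale (edgeR adjusted p = 0.00214) and Lhx2 fell by 3.52 ± 0.50 (7.06e-04). Lhx5 was at least 12.6-fold lower at P4 (edgeR adjusted p = 0.0225), a call lost without either E11 plate (0.0899 and 0.0542) or either P4 plate (0.106 and 0.116). Lmo2 rose, as given above. Lhx9, Lmo3 and Lmo4 had changes of 0.43 ± 0.54, 0.14 ± 0.42 and -0.31 ± 0.30.

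Partner genes of LIM complexes were read from a list of 6. Ldb1, the dimerising adaptor, was at 119 and 126 CPM at E11, 95 and 86.7 CPM at E18 and 41.0 and 31.7 CPM at P4; it fell by 1.10 ± 0.24 from E18 to P4 (edgeR adjusted p = 0.0118). Ssbp3, which stabilises Ldb1 complexes, was at 562 and 575 CPM at E18 and 260 and 214 CPM at P4 and fell by 1.05 ± 0.26 (0.019). Ldb2, the second adaptor, was at 126 and 39.2 CPM at E18 and 18.7 and 18.4 CPM at P4 (edgeR adjusted p = 0.0169), and without E18 plate 1 its call was lost (0.183). Without P4 plate 1 the calls of Ldb1 (0.0602), Ldb2 (0.107) and Ssbp3 (0.0961) were lost, as they were without P4 plate 2 (0.135, 0.118 and 0.169) and with only the plates of both stages fitted (0.0597, 0.0982 and 0.093). Ssbp2, Ssbp4 and Rlim did not pass from E18 to P4. Thus 3 of 6 partners were called and 0 rose, beside 19.6% of all genes called, 1606 rising and 1815 falling. From E11 to P4, Ldb1, Ssbp3 and Ssbp4 fell and 0 partners rose, beside 24.3% of all genes called, 2302 rising and 1942 falling. The Ssbp4 call (edgeR adjusted p = 0.0328) was lost on omitting any 1 of the 4 plates. Of 6 further LIM homeobox genes, Lhx3, Lhx4, Lhx8 and Isl2 were too low to test, and Lhx6 and Lmx1b fell from E18 to P4 (0.0462 and 0.0498), from means of 2.93 and 24.0 CPM. Lmx1b stood at 47.9 CPM on E18 plate 1 and was not found on E18 plate 2, where 3 counts would have been 2.26 CPM. That lies above its P4 mean of 0.944 CPM. Its call was lost without E18 plate 1, and no fold or direction can then be given. Its call was also lost without P4 plate 1 (0.229) or P4 plate 2 (0.181), and that of Lhx6 without E18 plate 1 (0.208), P4 plate 1 (0.195) or P4 plate 2 (0.228).

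Clusters of wells, made without the 10 genes but not without genes that overlap them, showed where each of the 10 was found. These are descriptions of wells on a few plates, and no test was made between clusters. A cluster of 58 endothelial-like wells had a median of 3959 counts, and 35 of its wells came from adult plate 2. Lmo4 was found in 32.8% of these wells, Lhx9 in 25.9%, Lmo3 in 13.8%, Lmo1 in 6.90% and Lhx2 in 5.17%. Whether these counts came from free RNA or from the cells themselves was not tested. Only 10 of the 58 wells came from P4 and P7 plates, so these shares bear mainly on adult plate 2, where the levels of Lhx9, Lmo1 and Lmo3 were lower than at P4 and P7. Lhx9 was found in 95.4% to 100% of the wells of each of the 4 main P4 and P7 clusters on each plate, whose median depths were 17844 to 23522 counts, so depth differs between these shares.

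**Figure D3:**
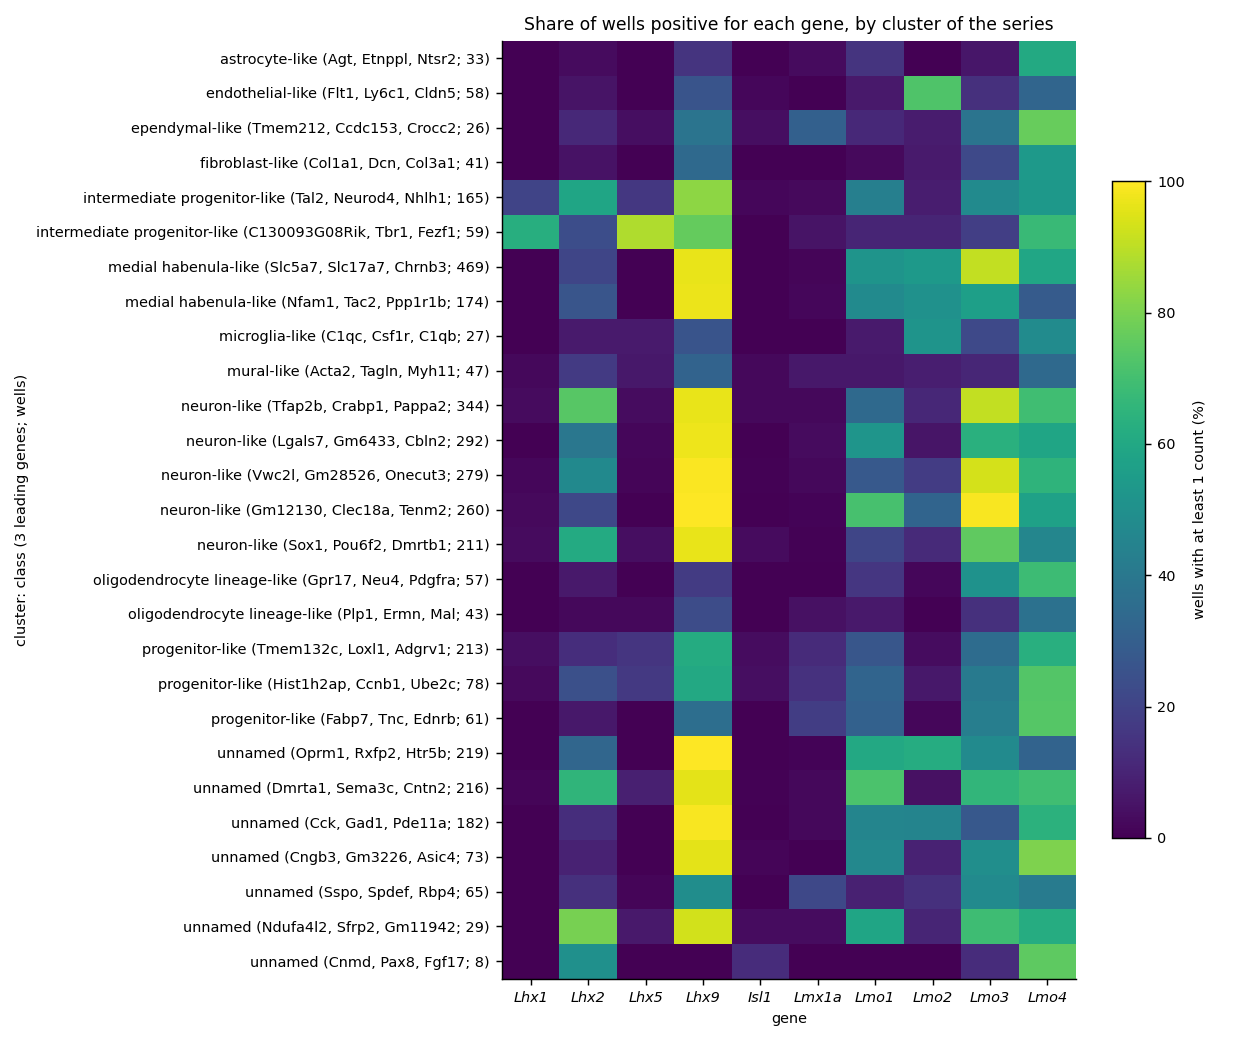
Share of wells with at least 1 count of each gene (colour, in percent) in each of the 27 clusters of the series, labelled by class, 3 leading genes and number of wells. Lhx1 and Lhx5 have their highest shares in the intermediate progenitor-like cluster led by C130093G08Rik, Tbr1 and Fezf1 (62.7% and 88.1%), Lmo2 in endothelial- and microglia-like clusters and some clusters of postnatal wells, and Lhx9 in nearly all neuronal wells.

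Lhx2 and Lhx5 differed most plainly in level between the 2 clusters named intermediate progenitor-like, which held 71 of the 114 series wells with Lhx1 and 79 of the 184 with Lhx5. Of the other Lhx5 wells, 33 lay in the progenitor-like cluster led by Tmem132c and 19 in the Dmrta1-led cluster. At a clustering resolution of 0.5 both fell in 1 cluster of 253 wells. In the 59 wells with Tbr1, Fezf1, Eomes and Uncx among their leading genes, most from E13, Lhx5 was found in 88.1% (95% Clopper-Pearson interval 77.1 to 95.1, counting error only), Lhx1 in 62.7% and Lhx2 in 23.7%. Their levels were 280, 209 and 36.2 CPM. In the 165 wells led by Tal2, Neurod4 and Nhlh1, nearly all from E11 to E13, Lhx2 was found in 58.8%, Lhx1 in 20.6% and Lhx5 in 16.4%, at 591, 182 and 41.2 CPM. On E13 plate 1, Lhx5 was at 345 CPM in 12 wells of the first cluster and 53.0 CPM in 17 of the second, Lhx1 at 391 and 59.7 CPM, and Lhx2 at 55.9 and 664 CPM. On E13 plate 2, with 34 and 18 wells, Lhx5 was at 260 and 41.8 CPM, Lhx1 at 154 and 26.1 CPM, and Lhx2 at 26.5 and 865 CPM. Lhx1 thus lay apart on these plates, while over all plates its levels of 209 and 182 CPM were close.

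Well by well, the same pattern appeared within plates. On E13 plate 2, 19 of the 22 wells with Lhx1 also held Lhx5 (86.4%), against 24.3% of the wells without Lhx1, and on E13 plate 1 it was 12 of 19 (63.2%) against 10.4%. Over the 7 plates with at least 10 wells positive for each gene, the odds ratio of Lhx1 and Lhx5, taken within 2 depth classes of wells, was above 1 on 7 of 7, with a median of 14.1 (2.35 to 32.8). Lhx1 and Lhx2 had an odds ratio below 1 on 7 of 7 plates, with a median of 0.399 (0.186 to 0.536). Lhx2 and Lhx5 were below 1 on 9 of 10 plates, with a median of 0.406 and a highest value of 1.00 at E12. Wells of 1 plate are not replicates, and these ratios carry no test.

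Most Lhx2 wells were also Lhx9 wells. On the P4 plates 64 of 64 and 72 of 72 wells with Lhx2 also held Lhx9, and on the P7 plates 54 of 54 and 61 of 61 did. Wells without Lhx2 nearly all held Lhx9 there too, 94.6% and 94.8% at P4 and 92.3% and 92.7% at P7. On E11 plate 1, 168 of 174 did (96.6%), against 80.0% of the wells without Lhx2. The odds ratio was above 1 on 16 of 16 plates. On E18 plate 1, with its few Pou4f1-positive wells, 18 of 28 wells with Lhx2 held Lhx9 (64.3%), against 42.3% without.

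**Figure D4:**
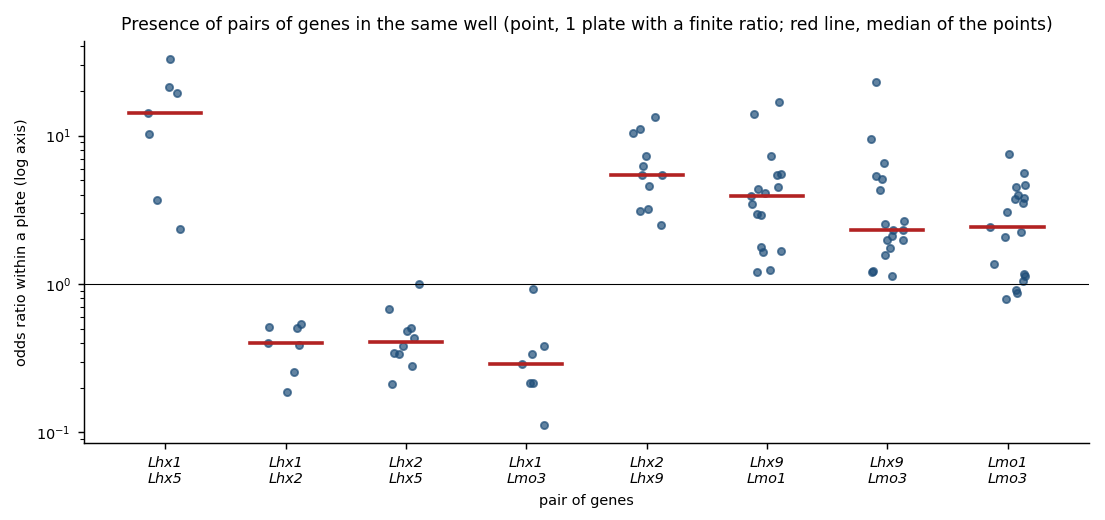
Odds ratio of finding both genes of a pair in the same well, within a plate and within 2 depth classes of wells, on a log axis; each point is 1 plate with a finite ratio and the red line is the median of the points. Lhx1 and Lhx5 lie above 1 on all 7 plates and Lhx1 and Lhx2 below 1 on all 7; for Lhx2 and Lhx9 only the finite ratios are drawn, so their line lies below the median of 8.83 over all 16 plates.

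Lmo3 divided the main P4 and P7 clusters. In the medial habenula-like cluster led by Slc5a7, Slc17a7 and Chrnb3, genes of cholinergic and glutamatergic transmission, it was at 513 and 534 CPM on the P4 plates and 501 and 506 CPM on the P7 plates. In the cluster led by Gm12130, Clec18a and Tenm2 it was at 623 and 685 CPM at P4 and 563 and 595 CPM at P7. In the cluster led by Oprm1, the mu opioid receptor, and Rxfp2 it was at 136, 85.6, 81.2 and 76.2 CPM on the same plates. In the cluster led by Cck, Gad1 and Pde11a it was at 41.1, 19.5, 7.61 and 17.8 CPM. The naming rule left the Oprm1- and Cck-led clusters unnamed. The first pair of clusters did not overlap the second pair on any plate. The Oprm1- and Cck-led clusters gave 34 and 28 of 287 kept wells on P4 plate 1, 35 and 10 of 322 on P4 plate 2, 75 and 66 of 326 on P7 plate 1, and 73 and 66 of 294 on P7 plate 2, beside the whole-plate Lmo3 of 423, 512, 291 and 276 CPM.

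The same clusters ordered the other genes differently. Lhx9 was highest in the Oprm1-led cluster, at 1536 and 1557 CPM on the P4 plates and 1256 and 1262 CPM on the P7 plates, and between 473 and 984 CPM in the other 3 clusters. Lmo2 was lower in the Gm12130-led cluster, at 21.4 to 38.6 CPM over the 4 plates, than in the Slc5a7-led cluster, at 68.4 to 101 CPM. Lmo1 was lower at P7, at 31.5 and 34.7 CPM, than at P4, at 88.0 and 67.3 CPM, in the Slc5a7-led cluster, while in the Oprm1-led cluster its P4 values of 145 and 88.9 CPM and P7 values of 68.3 and 87.0 CPM nearly met.

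**Figure D5:**
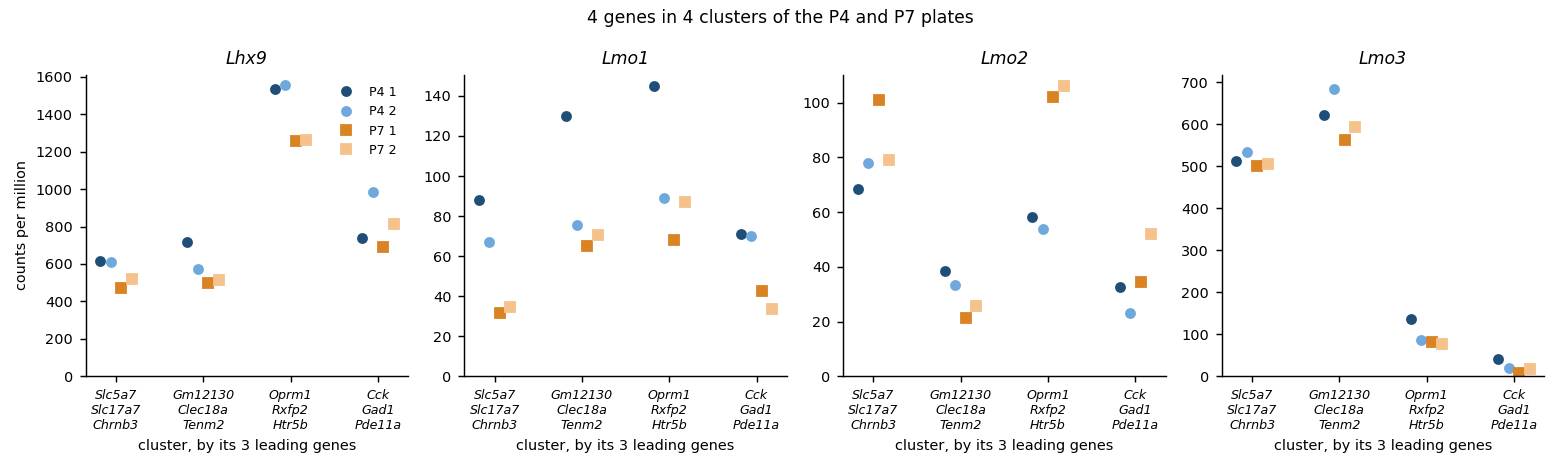
Levels of Lhx9, Lmo1, Lmo2 and Lmo3, in CPM, in 4 clusters of the P4 (circles) and P7 (squares) plates, each named by its 3 leading genes; a point is 1 plate. Lmo3 lies between 501 and 685 CPM in the first 2 clusters and between 7.61 and 136 CPM in the other 2.

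At E15, Lmo1 was at 414 and 485 CPM on the 2 plates in the cluster led by Dmrta1, Sema3c and the cell adhesion gene Cntn2, and at 258 and 200 CPM in the cluster led by Lgals7, Gm6433 and Cbln2. The 2 plates were filled differently: 144 of 188 kept wells of E15 plate 1 and 57 of 302 of E15 plate 2 fell in the first cluster, and 18 and 232 in the second. Lhx2 was at 286 and 155 CPM in the first cluster on these plates, and whole-plate Lhx2 differed in the same direction, at 252 and 93.0 CPM.

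Outside neurons, Lmo2 was at 414 CPM in the 58 endothelial-like wells, found in 72.4% of them, and at 172 CPM in the 27 microglia-like wells (51.9%), while no count was found in 33 astrocyte-like wells, which were shallow, with a median of 4838 counts. Lmx1a was at 135 CPM in the 26 ependymal-like wells (30.8%). Besides 5 ependymal markers, 4 roof plate or choroid plexus markers were raised in that cluster. Of its wells, 6 came from E13 plate 2 and 5 from E18 plate 1. Lmx1a was at 27.1 and 30.8 CPM in the progenitor-like clusters led by Tmem132c and by Hist1h2ap. It was at 21.1 CPM in a cluster led by Fabp7 and Tnc that also had the astrocyte genes Aqp4 and Aldh1l1 among its leading genes. Lmo4 was at 286 CPM in ependymal-like and 275 CPM in fibroblast-like wells. A cluster of 65 wells led by Sspo, the gene of SCO-spondin, held Lmx1a in 21.5% and Lmx1b in 41.5% of its wells. Lmx1b was open to the clustering and was itself among the leading genes of that cluster, so its share there is no separate finding.

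In the left and right comparison at E18, none of the 9 testable members was called by edgeR, beside 0% of 15489 genes, and Isl1 was too low to test. Before adjustment, edgeR put 1 of these members, Lmo2, and 182 of all genes under 0.05; DESeq2 called 0 members and 1 gene. Lhx9 was at 779 and 691 CPM on the left and 826 and 719 CPM on the right, a right minus left log2 difference of 0.05 ± 0.20. Lmo3 was at 301 and 279 CPM on the left and 342 and 297 CPM on the right (0.11 ± 0.19), and Lmo4 at 127 and 95.2 against 119 and 137 CPM (0.17 ± 0.20). Lmo1, at 99.1 and 85.0 CPM on the left, was at 110 CPM on both right plates (0.23 ± 0.18). Lhx2 was at 59.7 and 19.5 CPM on the left and 53.7 and 51.8 CPM on the right (0.31 ± 0.36).

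Lmo2 was at 27.9 and 10.8 CPM on the left and 11.9 and 9.23 CPM on the right, so 1 left plate stood apart. Left plate 1 also held 33 of the 36 erythroid-like wells of the set, which carry haemoglobin transcripts. They held 11.5% of its Lmo2 counts, and without them its Lmo2 was at 25.5 CPM. The plate of both sides had 76.8 CPM of Lhx2, above the 4 side plates. It held 50 of the 72 wells of a cluster led by Gbx2, a thalamic gene. Lhx2 was found in 84.7% of the wells of this cluster and Pou4f1 in 20.8%. The part of these wells in the Lhx2 level of the plate was not tested.

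Lmo3 also differed between medial habenula-like clusters at E18 in the second set. Only those led by Rasgrp1 and by Kcng4 are compared here, and Lmo3 is not given for the Clec18a-led or the Npr1-led cluster. In the medial habenula-like cluster led by Rasgrp1 and Slc18a3, the vesicular acetylcholine transporter, Lmo3 was at 839 and 794 CPM on the left plates, 861 and 726 CPM on the right plates and 1021 CPM on the plate of both sides. In the medial habenula-like cluster led by Kcng4 and Pde11a it was at 19.7 CPM on left plate 1, 22.5 and 44.2 CPM on the right plates and 9.66 CPM on the plate of both sides. Lmo1 was found in 93.8% of the wells of the first cluster and 40.5% of the second, at 246 and 35.7 CPM. Over plates, Lmo1 and Lmo3 had an odds ratio above 1 on 16 of 19, with a median of 2.44, and the 3 exceptions were E12, E13 plate 1 and P7 plate 2. Lhx9 was at 1667 and 1725 CPM in the Npr1- and Gpr151-led cluster on the first left and first right plate. The 27 wells led by Nts and by Crx, a gene of the pineal and retina, held Lhx1 in 51.9%, Lmx1a in 44.4% and Lhx5 in 40.7%.

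Reads assigned to unspliced transcripts set the genes apart in another readout. Lmo3 had 26.5% to 56.9% of its counts unspliced, with a median of 45.8%, above the value of all genes (17.6% to 28.9%) on 20 of 20 plates. Lmx1a had a median of 47.3% on the 4 plates with at least 20 counts and Lhx5 31.8% on 9 plates. Lhx2 (2.21%), Lhx9 (2.81%), Lmo4 (1.11%), Lmo1 (7.39%) and Lhx1 (1.39%) lay below all genes on every plate with at least 20 counts, and Lmo2 (4.17%) on 16 of 17. On the P4 plates 6.0 of 6.0 and 8.0 of 12.0 Lmx1a counts were unspliced. No source used here says whether counting used strand. Lmo3 overlaps A830011K09Rik, Gm30332 and B230110G15Rik on the other strand, Lhx5 overlaps Gm27199, and Lhx2, Lmo1, Lmo2 and Lmo4 each overlap at least 1 gene, so their counts are uncertain to that degree. B230110G15Rik was among the leading genes of the E18 cluster with high Lmo3, and Gm27199 among those of the Tbr1-led cluster with high Lhx5. Such overlapping genes were open to the clustering, and their part in these clusters was not tested.

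Genes whose levels followed those of a member most closely over the 15 series plates were ranked by Pearson correlation of log2(CPM + 1), among genes with a mean of at least 10 CPM. The plates share libraries and cell mixtures between genes, so the values are descriptive. Lhx2 lay nearest to Myt1, a zinc finger gene of early neurons (r = 0.974), and Lhx5 to Neurog2, a proneural gene (0.963). Lmo2 lay nearest to Lca5 (0.963), Lmo3 to Kidins220 (0.949), Lmo4 to Akr1c19 (0.935), Lhx9 to Irx2 (0.927) and Lmo1 to Pxylp1 (0.884). Lhx1, Isl1 and Lmx1a had means under 10 CPM and were not ranked.

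In the mouse genome (GRCm38), Lhx1 (ENSMUSG00000018698) lies at chr11:84518284-84525535 on the minus strand, Lhx2 (ENSMUSG00000000247) at chr2:38339281-38369733 on the plus strand, Lhx5 (ENSMUSG00000029595) at chr5:120431699-120441223 on the plus strand and Lhx9 (ENSMUSG00000019230) at chr1:138825186-138848577 on the minus strand. Isl1 (ENSMUSG00000042258) lies at chr13:116298281-116309689 on the minus strand and Lmx1a (ENSMUSG00000026686) at chr1:167689237-167848741 on the plus strand. Lmo1 (ENSMUSG00000036111) lies at chr7:109138572-109175207 on the minus strand, Lmo2 (ENSMUSG00000032698) at chr2:103957986-103981878 on the plus strand, Lmo3 (ENSMUSG00000030226) at chr6:138362918-138581968 on the minus strand and Lmo4 (ENSMUSG00000028266) at chr3:144188530-144205220 on the minus strand.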

How the data were processed

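Single-cell libraries were made on 20 plates of 384 wells with Cel-seq2, per the labels' protocols. STAR 2.5.3a, Trim Galore and the genome mm10 are named in the submitters' processing notes. The authors deposited expected counts per gene and well (total, spliced and unspliced), made by correcting UMI numbers for collisions, as the values show for 4096 possible UMIs. Whether counting used strand is not stated in the sources used. Inverting the correction gave whole numbers for 100.0% of values (tolerance 1e-06). A count test had been planned, so deposited values were summed over kept wells per plate and rounded. The 92 spike-in rows stayed out of totals and tests.

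A well was kept if it had 1000 or more nuclear-encoded counts, 500 or more detected genes and no more than 20% of counts from the mitochondrion. CPM was computed per plate from these sums. Summed counts were fitted with edgeR 4.0.16 (filterByExpr, TMM, glmQLFit, glmQLFTest; R 4.3.3) over 14 plates of 7 stages, E12 left out, or over the 4 side plates; the standard error is the log2 change divided by the root of F. Gene positions and overlaps came from GENCODE M21. The script was tested on simulated counts.

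Wells were clustered with scanpy 1.11.5 and leidenalg 0.10.2 at resolution 1, without the 10 members among the clustering genes, and named from marker lists by a rule tightened after seeing the clusters. No doublet caller was run; wells above 3 times the plate median, 83 and 12 in the 2 sets, were left out in an alternative. Shares carry 95% exact Clopper-Pearson intervals in the tables, which cover counting error only. Odds ratios are Mantel-Haenszel ratios over 2 depth classes, on plates with at least 10 wells positive and 10 negative for each gene. Alternatives were RLE scaling, DESeq2 1.42.0, no filter, recovered UMIs, other well sets, a replicate block and leaving out each plate. The named genes are the 10 members, 6 other LIM homeobox genes, 6 partners, and the 3 nearest genes of each member; members and lists were chosen with earlier results of these data known.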

Additional observations from a re-analysis of the deposited data

How the results depend on the processing

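RLE scaling, recovered UMIs, wells of at least 2000 UMIs, every well, and leaving out endothelial-, mural-, fibroblast-, microglia- and erythroid-like wells (added after seeing the data) kept the number of called members within 1.5 times of the reported one in all 9 comparisons. Over all genes DESeq2 called 951, 445, 670, 22 and 1411 from E11 to E13, E13 to E15, E15 to E18, P4 to P7 and P7 to the adult, against 253, 16, 34, 1 and 625 by edgeR. Without the low-count filter 2 members were called from E11 to E13 (4.56% of all genes), 5 from E13 to E15 (3.32%), 4 from E15 to E18 (3.89%), 7 from E18 to P4 (12.8%) and 3 from P7 to the adult (4.70%). DESeq2 called 1, 3 and 3 members from E11 to E13, E13 to E15 and E15 to E18, beside 5.45%, 2.55% and 3.84% of all genes. Pou4f1-positive wells alone gave 1 from E11 to E13 (1.78% of all genes). Leaving out high-count wells gave 2 from E15 to E18 (0.329%) and 1 from P7 to the adult (3.12%). With only the plates of both stages fitted, 0 were called from E15 to E18 (0% of all genes), 0 from E18 to P4 (3.58%), 2 from P4 to P7 (3.64%), 1 from P7 to the adult (4.79%) and 8 from E11 to P4 (58.3%); with 2 plates a group this fit has few degrees of freedom. Leaving out 1 plate could change the number of called members in every stage comparison except P4 to P7. The share of all genes called changed as well, and the lone plate is then assumed to vary like the other groups. The labels number the plates but do not say that a number pairs them: same-numbered plates deviated together (r over 0.1) in 6 of 21 stage pairs, with r from -0.496 to 0.397, and r was 0.271 between left and right. The replicate block gave 0 members from E15 to E18, where Lhx2 had an adjusted p of 0.0594, and Lmo4 from E18 to P4 had 0.0613. The cause of these changes was not tested. Among the members' calls none reversed. Outside the members, the fitted change of Lmx1b from E18 to P4 ranged from -5.22 to 5.02 on leaving out 1 plate. The positive value came without E18 plate 1, from E18 plate 2 alone, which held no Lmx1b count. The floor of that plate, 2.26 CPM for 3 counts, lay above the P4 mean of 0.944 CPM, so the positive value gives no direction. Shares of positive wells depend on depth and were compared at equal depth for Lhx2 and Lmo2; with 2 plates a stage, the standard errors given limit which changes could be called.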
